A study of Mus musculus with 4 samples.

Results

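Bre1b, encoded by the gene Rnf40, was knocked down in RIF-1 cells, a line grown from a fibrosarcoma that radiation had induced in a mouse, and the RNA was compared with 2 controls on 2 two-colour arrays. On the first array the control was RNA of RIF-1 cells without knockdown, and on the second it was RNA of RIF-1 cells given a mock knockdown, directed against GFP. Both arrays were chosen by the label of their knockdown channel and make up 2 of the 4 arrays of the study; the other 2 carry a knockdown of the partner gene Bre1a (Rnf20) in the same cells against the same 2 kinds of control. Knockdown RNA was labelled with Cy5 and control RNA with Cy3 on every array, so there was no dye swap. Each value is a log2 ratio of knockdown over control, so 1 stands for a doubling and -1 for a level cut to 50%. The labels do not say whether the RNAs came from separate cultures.

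BRE1B and BRE1A pair in a ligase that places a single ubiquitin on histone H2B in the body of transcribed genes. The mark travels with RNA polymerase II, depends on the PAF complex, and is needed for full methylation of histone H3 at lysines 4 and 79 by the enzymes that follow. It is known for its roles in transcription elongation, in the opening of chromatin during DNA repair and in the 3' processing of replication-dependent histone transcripts. RIF-1 cells are fibroblast-like tumour cells used in work on radiation and hypoxia.

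On both Bre1b arrays 8923 named genes had a value, of which 8676 also had values on both Bre1a arrays and could be tested. The values on both arrays were above 0 for 3616 genes (40.5% of 8923) and below 0 for 3390 (38%), and 1917 genes had opposite signs or a value at 0. At least a 2-fold difference of 1 direction on both arrays was held by 85 genes on the higher side (0.953%) and by 340 on the lower side (3.81%). The array with the mock control was the wider of the pair, with 382 genes at least 2-fold higher and 911 at least 2-fold lower, against 149 and 436 on the array without knockdown as control.

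Differences were tested with limma over all 4 arrays, with a term for the kind of control and Benjamini-Hochberg adjustment over 8676 genes at a threshold of 0.05. This fit called 2800 genes higher (32.3%) and 2444 lower (28.2%) after Bre1b knockdown, 60.4% in either direction. It has 1 residual degree of freedom, and 198 of the called genes had opposite signs on the 2 Bre1b arrays. Many genes share a limma adjusted p of 0.00944 in this fit, among them Rnf40, Lce1g and Atf3, so that value does not rank them. Without the control term, so that the difference between the controls counts as error, 37 genes were called higher (0.426%) and 125 lower (1.44%). All 162 of these were also called with the term and had the same sign on both Bre1b arrays. A call below is of the fit with the control term unless the narrower fit is named, and a list's counts are to be read against 32.3% and 28.2%. Counts of genes called between the Bre1b and the Bre1a knockdown are to be read against 13.2% of all tested genes higher and 11.7% lower. Because so large a share of all genes was called, a single call says little about a list, and the counts and medians are given as a description.

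**Figure D1:**
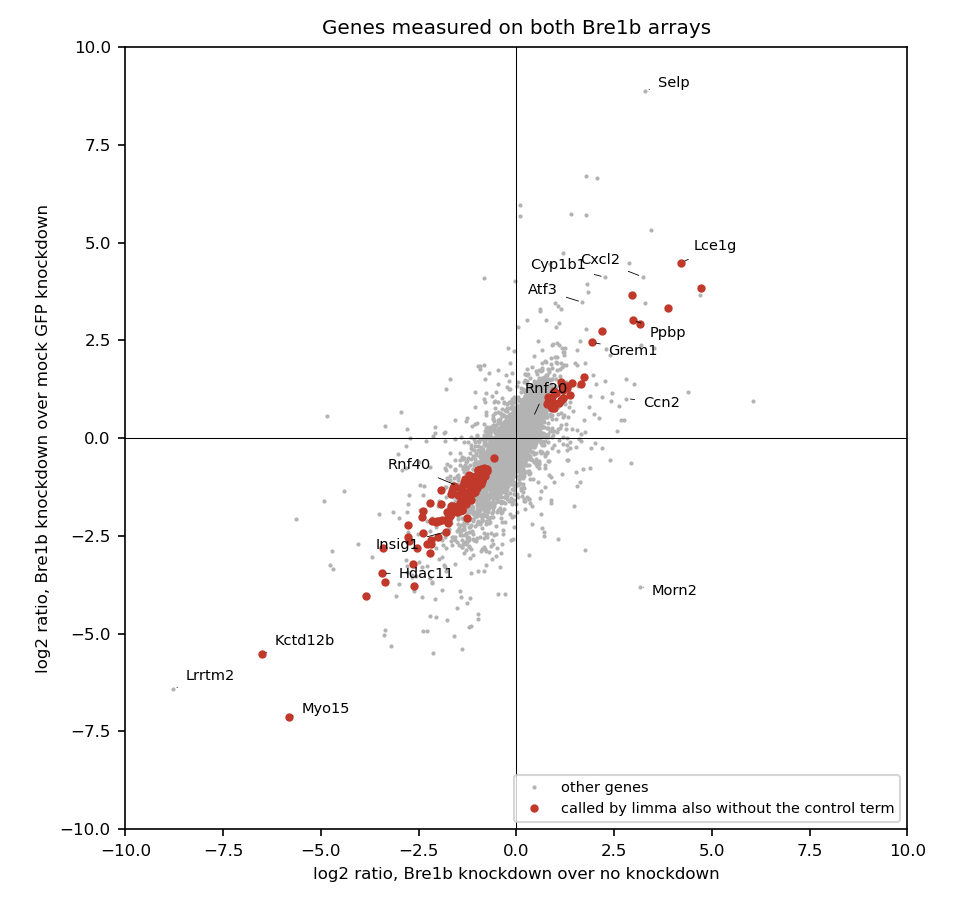
Each point is a gene with a value on both Bre1b arrays, placed by its log2 ratio over cells without knockdown (x axis) and over mock GFP knockdown (y axis). The 162 genes in red were called by limma also without the control term and lie near the diagonal, and most of the points far from it, such as Morn2 and Selp, are among the grey genes.

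The targeted gene was lower on both arrays. Rnf40 was at -1.49 over no knockdown and -1.23 over mock, a mean of -1.36 ± 0.18 (SD, n = 2), or 38.9% of control (limma adjusted p = 0.00944, and 0.052 without the control term). On the Bre1a arrays the same spot was at 0.17 and 0.65. Rnf20, the gene of the partner subunit, was at 0.42 and 0.51 on the Bre1b arrays, against -1.60 and -1.35 on the Bre1a arrays. Its mean after Bre1b knockdown was 0.47 ± 0.06 (n = 2, limma adjusted p = 0.0152, and 0.0728 without the control term). Each subunit was therefore low only on the arrays of its own knockdown, and the differences between the knockdowns were -1.77 for Rnf40 and 1.94 for Rnf20 (limma adjusted p = 0.0372 for each).

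Of the ligase and its partners 11 of 14 tested genes were called higher and 1, Rnf40 itself, lower, with list medians of 0.25 over no knockdown and 0.45 over mock. The Bre1a arrays had medians of 0.19 and 0.29 for the same list. Wac, the adaptor that links the ligase to RNA polymerase II, was at 0.55 and 0.69. Cdc73, a subunit of the PAF complex, was at 0.44 and 0.70, and Ccnt1, the cyclin of the elongation kinase P-TEFb, at 0.51 and 0.67. The ubiquitin-conjugating enzymes that work with the ligase did not pass the test, with 0.11 and 0.12 for Ube2a and 0.22 and -0.01 for Ube2b. None of the 14 genes was called by the fit without the control term.

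Among enzymes that remove ubiquitin, some of them from H2B, and their partner proteins, 1 of 10 tested genes was called higher and 1 lower. Usp46, a deubiquitinase activated by WD-repeat cofactors, fell to -1.19 over no knockdown and -1.23 over mock, against -0.02 and 0.24 on the Bre1a arrays. The call held without the control term (limma adjusted p = 0.043), although 1 of its spots lay at a small whole-number ratio, a pattern described below. Usp22, the deubiquitinase of the SAGA complex, was at 0.18 and 0.04 and did not pass. Of a list of H3K4 and H3K79 methyltransferases, their partner proteins and histone demethylases, 8 of 17 were called higher and 2 lower. The demethylases Kdm1a and Kdm6a were among those called higher. Dot1l, the H3K79 methyltransferase, was at 0.46 and 1.28 on the Bre1b arrays and at 0.67 and 1.24 on the Bre1a arrays. Men1, the menin subunit of MLL complexes, was at -0.24 and -0.45.

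The 20 genes highest on both Bre1b arrays held 5 late cornified envelope (Lce) genes, which encode proteins of the outer epidermis. All 5 Lce genes with values were at least 2-fold higher on both arrays, and the 4 that were tested were called with and without the control term. Lce1g was at 4.21 and 4.48, a mean of 4.35 ± 0.19 or 20.3-fold (n = 2, limma adjusted p = 0.00944, and 0.0145 without the control term). Crct1, a gene of the same epidermal cluster, was at 2.20 and 2.73. On the Bre1a arrays Lce1g was at 4.33 and 4.56 and Crct1 at 2.40 and 2.81, and the difference between the knockdowns was -0.10 ± 0.05 for Lce1g (SE, limma adjusted p = 0.246). Lce1i, at 3.17 and 2.92 on the Bre1b arrays and 2.76 and 2.38 on the Bre1a arrays, was called higher after Bre1b than after Bre1a knockdown, by 0.48 ± 0.06 (SE, limma adjusted p = 0.0451). The differences of Lce1h and Lce1e were not called. Since knockdown RNA carried Cy5 throughout, an effect of both knockdowns and a dye effect on these spots cannot be told apart.

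Ppbp, a platelet chemokine precursor, was at 2.97 and 3.02 on the Bre1b arrays and at 3.33 and 2.49 on the Bre1a arrays. Selp, the adhesion molecule P-selectin, was at 3.29 over no knockdown and 8.88 over mock, against 2.42 and 4.33 on the Bre1a arrays. The 2 Bre1b values of Selp differ widely, and whether this comes from the control or from the single array was not tested. Serpinb2, the plasminogen activator inhibitor of the serpin B family, was at 2.87 and 4.47, against 1.51 and 2.47 on the Bre1a arrays. Grem1, a secreted antagonist of BMPs, rose to 1.93 and 2.45, while the Bre1a arrays had -0.18 and 0.04. Its mean of 2.19 ± 0.37 (n = 2) was called in both fits (limma adjusted p = 0.00944 with the control term and 0.0406 without). Il24, a cytokine of the IL-10 family, was at 2.29 and 2.28 over its 2 probes, of which 1 had values on the Bre1b arrays alone and stayed out of the test. Of the 20 highest genes 16 were tested and 14 called higher, and 19 rest on 1 probe. Those tested and not called were Slc23a3, at 3.53 and 2.31 (limma adjusted p = 0.127), and Hlf, a PAR bZIP factor, at 2.40 and 2.13 (limma adjusted p = 0.0763).

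The lowest genes lay further from 0 than the highest. Lrrtm2, a synaptic adhesion gene, was at -8.78 and -6.41, Myo15, the unconventional myosin of hair cell stereocilia, at -5.82 and -7.13, and Kctd12b, of the potassium channel tetramerisation domain family, at -6.50 and -5.51. Kctd12b was at -0.29 and -1.29 on the Bre1a arrays, and Myo15 at -5.12 and -4.68. Hdac11, a class IV histone deacetylase, was at -3.44 and -3.46, a mean of -3.45 ± 0.01 (n = 2) or 9.13% of control, with -1.04 and -1.21 on the Bre1a arrays. Its call held in both fits (limma adjusted p = 0.00944 with the control term and 0.0145 without). Loxl3, a lysyl oxidase, was at -3.40 and -2.81, and Dpyd, the first enzyme of pyrimidine breakdown, at -2.80 and -3.28, each with a spot at a small whole-number ratio.

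Of the 20 lowest genes 11 were tested and 10 called lower, the other being Adam12, a metalloprotease, at -4.06 and -2.70 (limma adjusted p = 0.051), and 18 rest on 1 probe. In all 12 of the 20 had a spot at a small whole-number ratio, against 2 of the 20 highest. Such spots lie within 0.0015 of the log2 of a ratio of small whole numbers, counted from the value that repeats, within 0.002, on 803 spots of the array over no knockdown and 683 of the array over mock. They make up 38.5% of the spots between 3 and 5 log2 units on the array over no knockdown and 28.9% over mock. The same count at slightly shifted positions ran from 1.9% to 13.5% over no knockdown and from 3.1% to 7.0% over mock. Fes, a cytoplasmic tyrosine kinase, Tfeb, the master regulator of lysosomal genes, and Rpsa, a ribosomal protein, are examples, and all 3 lacked values on a Bre1a array and were not tested. Of all 425 genes at least 2-fold different in 1 direction, 73 had such a spot, 72 were not tested and 309 were called. Such spots are not marked for every gene below, where Dnajb9, Fads2, Acta1, Des and Ypel1, among others, also had one. Intensities were not analysed here, so the brightness of these spots was not tested.

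**Figure D2:**
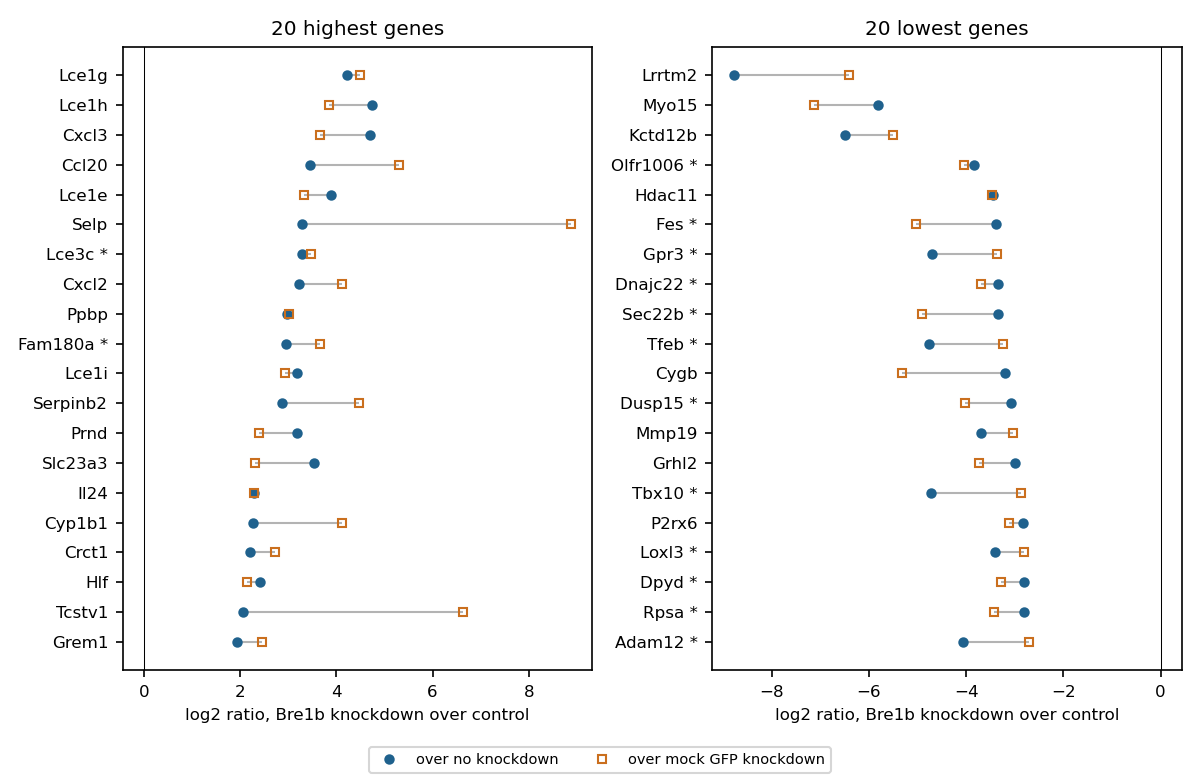
The 20 highest and 20 lowest genes that agree in sign on both Bre1b arrays, ordered by the smaller of their 2 absolute log2 ratios, with 1 symbol per control and a line joining them. An asterisk marks a gene with a spot at a small whole-number ratio, which holds for 2 of the highest and 12 of the lowest genes.

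The 162 genes called also without the control term had close values on both arrays by the nature of that fit, and 23 of them belong to a list. Of the 37 higher genes 24 were also called higher after Bre1b than after Bre1a knockdown and 13 were not called between the knockdowns. Of the 125 lower genes 77 were called lower than after Bre1a knockdown, 4 higher, and 44 were not called between them. The genes in the next paragraph were picked from these 162 after their values were seen.

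Several signalling and transcription genes were among the higher ones. Cxcl1 rose to 1.66 and 1.38, Thbs1, the matrix protein thrombospondin 1, to 1.72 and 1.57 (with a further probe outside the test), and Rgs16, which shortens G-protein signals, to 1.29 and 1.33. Hoxc13, a homeobox gene of hair follicles, was at 1.17 and 1.36 on the Bre1b arrays and 0.18 and 0.19 on the Bre1a arrays. S100a8, a calcium-binding alarmin, was at 1.20 and 1.23, while the Bre1a arrays had -0.79 and -0.59. Among the lower genes, Cenpb, which binds the centromeric CENP-B box, fell to -1.13 and -1.16, while the Bre1a arrays had -0.05 and 0.06. Pdk4, a kinase that inhibits pyruvate dehydrogenase, was at -1.31 and -1.04, against 0.35 and 0.43 on the Bre1a arrays. Nras, the small GTPase, was at -0.84 and -0.80 on the Bre1b arrays and at -0.72 and -0.59 on the Bre1a arrays.

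A run of clustered protocadherins, neuronal adhesion genes whose promoters are chosen at random in each cell, was low. All 8 Pcdhb genes with values were below 0 on both Bre1b arrays, 7 were called lower, and 4 were called lower also without the control term. Pcdhb19 was at -2.22 and -2.95, Pcdhb20 at -1.78 and -1.88, Pcdhb16 at -1.60 and -1.23 and Pcdhb17 at -1.26 and -1.09. Of the probes of Pcdhb19, 1 spot lay at a small whole-number ratio. On the Bre1a arrays these 4 were also below 0, Pcdhb20 with -1.37 and -1.74 and Pcdhb17 with -1.02 and -0.91. The genes resemble each other in sequence, so a spot may take up RNA of several of them.

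Replication-dependent histone genes, whose transcripts end in a stem-loop, were high on the Bre1b arrays and differed by histone class. All 11 tested H4 genes and 11 of 14 H2B genes were called higher, 2 H2B genes were called lower, and none was called by the fit without the control term. H2B genes had medians of 0.66 and 1.21 on the Bre1b arrays, against -0.13 and 0.39 on the Bre1a arrays. H4 genes had 0.54 and 1.28, against -0.26 and 0.59 on the Bre1a arrays. Of the 4-array differences 9 H2B and 10 H4 genes were called higher after Bre1b than after Bre1a knockdown, where 13.2% of all tested genes were. H3 genes had medians of 0.16 and 1.31 on the Bre1b arrays and 0.07 and 1.01 on the Bre1a arrays, with 4 of 7 called higher and 0 called between the knockdowns by limma with the control term. Of 3 linker histone H1 genes 1 was called higher. H2A genes gave no such picture, since 7 of 10 lay within 0.002 of the value that repeats across each array (0.11 and -0.08) and may hold no measured difference.

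H2bc14 was at 0.91 and 1.24 on the Bre1b arrays, of which 1 spot lay at a whole-number ratio, with -0.03 and 0.41 on the Bre1a arrays. H2bc12 was at 0.66 and 1.16, with -0.14 and 0.36 on the Bre1a arrays. The 2 genes called lower were H2bc3, at -0.86 and -0.27, and H2bu2, at -0.92 and -1.03. Histone genes of a class are near-identical, so the value of a single copy is uncertain. Slbp, the protein that binds the histone stem-loop, was at 0.33 and 0.43 on the Bre1b arrays and at 0.53 and 0.58 on the Bre1a arrays. Polyadenylated and stem-loop ends of histone transcripts cannot be told apart by these spots.

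The promoters of H2bc14 and H2bc12 are shown because they hold the octamer ATTTGCAT, the binding motif of OCT1, and belong to genes called higher. The bases shown, from RefSeq on GRCm38.p6, end just before the start site; they are chr13:21721979-21722043 on the plus strand for H2bc14 and chr13:22035751-22035820 on the plus strand for H2bc12, with the octamer in capitals.
H2bc14: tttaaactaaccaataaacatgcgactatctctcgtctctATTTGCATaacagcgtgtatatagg
H2bc12: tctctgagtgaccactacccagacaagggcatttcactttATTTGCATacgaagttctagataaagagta
On either strand of the 250 bases before a start, the octamer was found for 9 of the 40 tested histone genes with a promoter entry and for 1.81% of 27025 genes. It was present in 4 of the 24 histone genes called higher that have a promoter entry. The other histone genes with the octamer were not called higher, and among them H2bc3 was called lower. The shorter CCAAT motif was found for 32 of the 40 histone genes and for 37.5% of all genes.

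Genes of ribosome biogenesis, which make and process ribosomal RNA in the nucleolus, were higher as a list on both Bre1b arrays. Of 45 tested genes 37 were called higher and 0 lower by limma, and 42 of the 45 were above 0 on both arrays. The medians were 0.48 and 0.88 on the Bre1b arrays, against 0.06 and 0.38 on the Bre1a arrays, and 23 of the 45 were called higher after Bre1b than after Bre1a knockdown, where 13.2% of all tested genes were. Noc3l, a factor of the large subunit, was at 1.18 and 2.19, and Utp4, of the small-subunit processome, at 1.04 and 1.75. The same genes had 0.05 and 1.01 and -0.09 and 0.74 on the Bre1a arrays. Polr1a, the largest subunit of RNA polymerase I, was at 0.66 and 0.67, and Nop56, a box C/D snoRNP protein, at 0.79 and 1.21. The fit without the control term called 0 of the 45 genes.

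The proteins of the ribosome itself gave little to read. Of 63 tested cytosolic ribosomal protein genes 5 were called higher and 10 lower, and 36 had the repeated value on both Bre1b arrays. Rps18 was at 0.63 and 0.78 and Rpl22 at -0.64 and -1.72. The respiratory chain had 14 higher and 4 lower of 63, and 14 genes at the repeated value. Uqcrc2, a core protein of complex III, was at 0.63 and 0.46, and Atp5c1, the gamma subunit of ATP synthase, at -0.20 and -0.44.

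A list of targets of the tumour suppressor p53 and of arrest and feedback genes had 20 higher and 5 lower of 29 tested genes. Its medians were 0.46 and 0.42. The Bre1a arrays had medians of 0.18 and 0.28, and 12 genes were called higher after Bre1b than after Bre1a knockdown. Mdm2, the ubiquitin ligase that turns over p53, rose to 1.15 and 1.44, Ccng1, cyclin G1, to 0.98 and 1.16, and Gadd45g, a stress sensor, to 1.30 and 1.29. These 3, with Phlda3 at 0.78 and 0.87, were called also without the control term. Btg2, an antiproliferative gene, was at 1.21 and 2.19, and Cdkn1a, the cell cycle inhibitor p21, at 0.46 and 0.35. Plk2, a polo-like kinase, fell by a mean of 1.85 ± 0.21 (n = 2) in both fits and was at -1.94 and -2.22 on the Bre1a arrays.

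Of apoptosis regulators 6 were called higher and 7 lower of 21 tested genes, near the shares of all genes. Pmaip1, the BH3-only protein Noxa, was at 1.12 and 1.49 and Bcl2l1, the survival protein Bcl-xL, at 0.88 and 0.89. Bcl2 was at -1.01 and -1.94 over its probes, of which 1 had values on the Bre1b arrays alone. Casp9, the initiator caspase of the mitochondrial pathway, was at -0.53 and -0.57, while the Bre1a arrays had -0.16 and -0.09.

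Cell cycle genes of G2 and mitosis were slightly lower on the array over no knockdown and near the array median over mock. Of 55 tested genes 29 were called lower and 1 higher, with medians of -0.35 and -0.06, against 0.01 and 0.30 on the Bre1a arrays. Birc5, the survivin subunit of the chromosomal passenger complex, was at -0.89 and -0.55, with 0.11 and 0.38 on the Bre1a arrays. Foxm1, the transcription factor of the G2 programme, was at -0.37 and -0.22, against 0.36 and 0.43. Pbk, a mitotic kinase, at -0.80 and -0.85, was the gene of this list called also without the control term. In all 19 genes were called lower after Bre1b than after Bre1a knockdown and 0 higher, where 11.7% of all tested genes were called lower. DNA replication genes had 8 higher and 10 lower of 45, with medians of -0.06 and -0.01, and G1 cyclins, kinases and inhibitors had 7 higher and 8 lower of 25. Orc4, of the origin recognition complex, was at 0.44 and 0.87, and Cdkn2d, the inhibitor p19, fell by a mean of 0.93 ± 0.10 (n = 2), a call that held in both fits.

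Recombination and Fanconi anaemia genes, which repair double-strand breaks and crosslinks, were called lower for 15 and higher for 5 of 29 tested members. The medians were -0.25 on both Bre1b arrays, against 0.04 and 0.01 on the Bre1a arrays. Fancg, of the Fanconi core complex, fell to -1.68 and -1.43, with -0.08 and -0.27 on the Bre1a arrays, and was called in both fits. Brip1, the helicase partner of BRCA1, was at -0.79 and -0.74, Fanci at -0.66 and -0.76 and Brca1 at -0.37 and -0.25. Rad52, which anneals single strands, was at 0.40 and 0.38 and was called higher. Of the list 13 genes were called lower and 2 higher after Bre1b than after Bre1a knockdown.

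A list of immediate early genes, which respond first to growth factors and stress, held AP-1, Egr and Nr4a factors and other genes. Its members Atf3, Btg2 and Ereg also belong to other lists given here. Of its 40 tested genes 27 were called higher and 2 lower. Their medians were 0.34 and 0.48 on the Bre1b arrays, against -0.21 and 0.04 on the Bre1a arrays. Atf3, a stress-induced bZIP factor, was at 1.69 and 3.47, while the Bre1a arrays had -1.42 and 0.44. Its mean was 2.58 ± 1.26 (n = 2, limma adjusted p = 0.00944, and 0.0799 without the control term). Csrnp1, a nuclear protein induced by AXIN1, was at 1.22 and 1.87, and Nr4a1, an orphan nuclear receptor, at 0.80 and 1.77. Fos was at 0.41 and 1.36, against -1.55 and -0.65 on the Bre1a arrays, whereas Jun, at -0.07 and -0.09, and Egr1, at -0.03 and -0.22, did not pass. The values over mock were the larger ones for Atf3, Csrnp1, Nr4a1 and Fos.

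Genes of growth factor and MAP kinase signalling were also measured. A list of MAP kinase phosphatases, Sprouty genes and other members, among them Map2k6 and Etv5, had 13 higher and 4 lower of 27. Dusp1, the phosphatase of p38 and JNK, was at 1.26 and 1.87. Map2k6, the kinase upstream of p38, was at -1.29 and -2.43 and was called lower. Of EGF ligands and receptors 4 were called higher and 3 lower of 9. Ereg, the ligand epiregulin, was at 1.15 and 1.91, with -0.87 and -0.06 on the Bre1a arrays, and Egfr was at 0.54 and 0.51.

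The integrated stress response, in which kinases of eIF2 alpha switch on ATF4 and CHOP, had 20 higher and 4 lower of 38, with medians of 0.17 and 0.32. The Bre1a arrays had list medians of 0.06 and 0.26. After Bre1b than after Bre1a knockdown 8 genes were called higher and 4 lower, where 13.2% and 11.7% of all tested genes were. Ddit3, which encodes CHOP, rose to 0.95 and 0.78, and Ppp1r15a, the GADD34 phosphatase subunit that reverses the response, to 0.81 and 0.91. Both were called also without the control term and stood at 0.00 and -0.03 and at 0.20 and 0.28 on the Bre1a arrays. Atf4 itself was at 0.11 and 0.27. Heat shock chaperones had 16 higher and 4 lower of 25, with Hspb1 at 0.76 and 1.95 and Stip1, the HSP70 and HSP90 organising protein, at 0.55 and 1.02. Hspb1 had much the same values on the Bre1a arrays, 0.82 and 1.84. Chaperones of the endoplasmic reticulum had 6 higher and 4 lower of 24, with Hyou1 at 0.55 and 0.77 and Dnajb9 at -1.97 and -3.09.

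Targets of the mechanosensitive coactivator YAP and its TEAD partners had 14 higher and 3 lower of 24, with medians of 0.34 and 0.15. Only 12 of the 24 were above 0 on both Bre1b arrays, and 3 were below 0 on both. Values of the best-known targets differed between the arrays of the 2 controls. Ccn2, connective tissue growth factor, was at 2.81 over no knockdown and 1.01 over mock, and Ccn1 at 1.38 and 0.93. Ankrd1, a muscle and stress ankyrin repeat protein, was at 1.53 over no knockdown and -0.86 over mock, and Cavin2, a caveolar coat protein, at 1.64 and -0.08. The Bre1a arrays showed the same gap, with 1.25 and -1.02 for Ankrd1 and 1.63 and -0.07 for Cavin2. Ajuba, a LIM protein that restrains the LATS kinases, was at 0.98 and 0.71, and Tead1 at 0.69 and 1.46.

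TGF-beta and BMP responsive genes had 13 higher and 9 lower of 35. Among ligands, Bmp2 was at 0.47 and 1.35 and Bmp4 at 0.52 and 0.71, while Tgfb1 was at -0.66 and -0.64 and Tgfb3 at -0.55 and -0.79. Of the antagonists and targets, Grem1 was described above, Id4, an inhibitor of bHLH factors, was at 1.03 and 2.06, and Tgfbi, a secreted matrix protein, at -1.50 and -0.99. Wnt and Notch genes had 8 higher and 11 lower of 30. Fzd5, a Wnt receptor, was at 0.94 and 2.41, and Dkk3, a secreted protein of the Dickkopf family, at -1.33 and -2.17.

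Of 27 tested chemokines and cytokines 9 were called higher and 7 lower, near the shares of all genes, and 7 of the 27 were at least 2-fold higher on both arrays. Cxcl2, a neutrophil chemokine, was at 3.23 and 4.12 on the Bre1b arrays, against -1.65 and -0.14 on the Bre1a arrays. Its mean of 3.68 ± 0.63 (n = 2), or 12.8-fold, was called higher (limma adjusted p = 0.00944, and 0.0523 without the control term). Cxcl1, a close relative, was at 1.66 and 1.38, with -0.09 and -0.28 on the Bre1a arrays. Cxcl3, at 4.70 and 3.66, and Ccl20, at 3.44 and 5.31, had no value on a Bre1a array and were not tested.

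Further members of this list were called in both directions. Ccl5, a T-cell chemokine, was at 1.07 and 3.37, Il11, a cytokine of the IL-6 family, at 1.03 and 2.43, and Ptgs2, the inducible cyclooxygenase, at 1.16 and 1.82. On the Bre1a arrays Il11 was at -2.09 and -0.68 and Ptgs2 at -0.51 and 0.12. Among genes called lower, Cx3cl1, fractalkine, was at -0.96 and -1.78, Il18 at -0.65 and -1.37 and Cxcl12, a homing chemokine, at -0.39 and -1.32. Of the list 12 genes were called higher and 3 lower after Bre1b than after Bre1a knockdown.

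The kappa B motif, bound by NF-kB, lies just before the start of Cxcl1 and Cxcl2, which are shown because they hold it and were called higher. The stretches, from RefSeq on GRCm38.p6, are chr5:90891135-90891244 on the plus strand for Cxcl1 and chr5:90903763-90903872 on the plus strand for Cxcl2, with the motif in capitals, where the matches of both strands overlap.
Cxcl1: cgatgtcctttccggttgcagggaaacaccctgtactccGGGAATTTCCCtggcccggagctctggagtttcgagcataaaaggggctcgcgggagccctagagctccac
Cxcl2: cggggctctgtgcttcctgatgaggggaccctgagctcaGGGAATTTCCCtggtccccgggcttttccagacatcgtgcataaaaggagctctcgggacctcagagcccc
The motif was found in the 250 bases before a start for 4 of the 19 tested genes of the list with a promoter entry, Cxcl1, Cxcl2, Csf1 and Il1r1, and for 4.46% of 27025 genes. Csf1, a macrophage growth factor, was at 0.20 and -0.13 and Il1r1, the IL-1 receptor, at -1.45 and -1.70, and neither passed the test. The Il1r1 values average in a probe that had values on the Bre1b arrays alone and stayed out of the test.

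Of the subunits and feedback genes of NF-kB 4 were called higher and 5 lower of 20, with medians of -0.03 and -0.29. Rela, the p65 subunit, was at 0.34 and 0.44 and Tnfaip3, the feedback inhibitor A20, at 0.71 and 0.07. Nfkbia, the inhibitor I kappa B alpha, at 0.07 and -0.39, did not pass. Nfkbie was at -0.52 and -1.13 and Birc3, an NF-kB target that blocks caspases, at -0.22 and -0.69. On the Bre1a arrays Tnfaip3 was at -1.08 and -1.78 and Birc3 at -0.97 and -1.36, and 7 genes of the list were called higher after Bre1b than after Bre1a knockdown.

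Interferon-induced genes were low. Of 50 tested genes 31 were called lower and 3 higher, with medians of -0.32 and -0.39, against -0.20 and -0.29 on the Bre1a arrays. Oasl2, an antiviral protein of the OAS family, fell to -1.47 and -1.79, with -0.23 and -0.39 on the Bre1a arrays, and was called in both fits. Sp110, a nuclear body protein, was at -2.16 and -3.67 and its relative Sp100 at -1.61 and -2.52. Gbp2 and Gbp7, guanylate-binding GTPases, were at -1.12 and -2.12 and at -1.15 and -1.89, against 0.15 and -0.85 and 0.80 and -0.27 on the Bre1a arrays. Irf7, the factor that drives interferon alpha genes, was at -0.96 and -0.73 and Stat2 at -0.57 and -0.92. Cxcl10 went the other way, with 0.63 and 0.86, and Ifit3 had opposite signs, with -1.02 and 0.38.

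Antigen presentation by MHC class I and the immunoproteasome had 11 of 15 tested genes called lower and 0 higher by limma, with medians of -0.50 and -0.84. The Bre1a arrays had medians of -0.01 and -0.53 for this list. The fit without the control term called 0 of the 15 genes. Psmb9, Psmb8 and Psmb10, the catalytic subunits of the immunoproteasome, were at -1.87 and -2.42, at -1.26 and -1.78 and at -0.73 and -1.59. Tapbpl, a peptide editor, was at -0.83 and -1.24, and Tap1, the peptide transporter, at -0.66 and -0.49. H2-K1, a class I heavy chain, at 0.02 and -0.29, and B2m, at 0.01 and -0.18, did not pass. On the Bre1a arrays Psmb9 was at -0.31 and -1.23, and 7 genes were called lower after Bre1b than after Bre1a knockdown and 0 higher.

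The core GAAANNGAA of the interferon-stimulated response element was found in 18 of the 46 tested interferon-induced genes with a promoter entry and in 8.18% of 27025 genes. It was present in 11 of the 28 called lower that have a promoter entry, and in 2 of 13 class I and immunoproteasome genes. Gbp2 and Igtp, both among the GTPases called lower, are shown with the element in capitals, from chr3:142620565-142620662 on the plus strand and chr11:58199482-58199555 on the plus strand of GRCm38.p6 (RefSeq).
Gbp2: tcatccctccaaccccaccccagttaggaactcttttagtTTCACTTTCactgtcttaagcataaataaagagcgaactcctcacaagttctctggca
Igtp: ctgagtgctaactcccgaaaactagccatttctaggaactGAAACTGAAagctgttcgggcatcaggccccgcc
Igtp was at -0.99 and -1.33 on the Bre1b arrays and at -0.74 and -1.12 on the Bre1a arrays.

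Genes of sterol synthesis and uptake fell together, with 19 of 23 tested genes called lower and 1 higher. The medians were -0.56 and -1.13, against -0.65 and -0.92 on the Bre1a arrays. Hmgcs1, the synthase at the head of the pathway, fell to -1.42 and -1.69, Idi1, the isopentenyl isomerase, to -1.30 and -1.54, Insig1, the sterol sensor, to -1.80 and -2.40 and Stard4, a cholesterol carrier, to -1.32 and -1.56. These 4 were called in both fits. Idi1 had the same values on the Bre1a arrays, -1.29 and -1.54, whereas Insig1 was at -0.76 and -1.31 there. Cyp51, at -0.91 and -1.13, was lower still on the Bre1a arrays, at -1.42 and -1.64. Npc1, the lysosomal cholesterol exporter, was the gene called higher, at 0.44 and 0.43.

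The sterol element TCACNCCAC was found within 250 bases before the start for 1 of 18 genes of the list with a promoter entry and for 1.22% of 27025 genes, and CCAAT for 16 of the 18. The match belongs to Hmgcs1, at chr13:119690174-119690282 on the plus strand of GRCm38.p6 (RefSeq), with the element in capitals.
Hmgcs1: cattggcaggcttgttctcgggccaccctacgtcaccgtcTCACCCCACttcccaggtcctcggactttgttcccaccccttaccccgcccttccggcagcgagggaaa
Fatty acid synthesis had 11 lower and 3 higher of 18. Scd1, the stearoyl-CoA desaturase, was at -1.40 and -2.36 and Fads2, a desaturase of polyunsaturated fatty acids, at -0.90 and -1.47. Fasn, the synthase itself, was at 0.22 and 0.24.

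**Figure D3:**
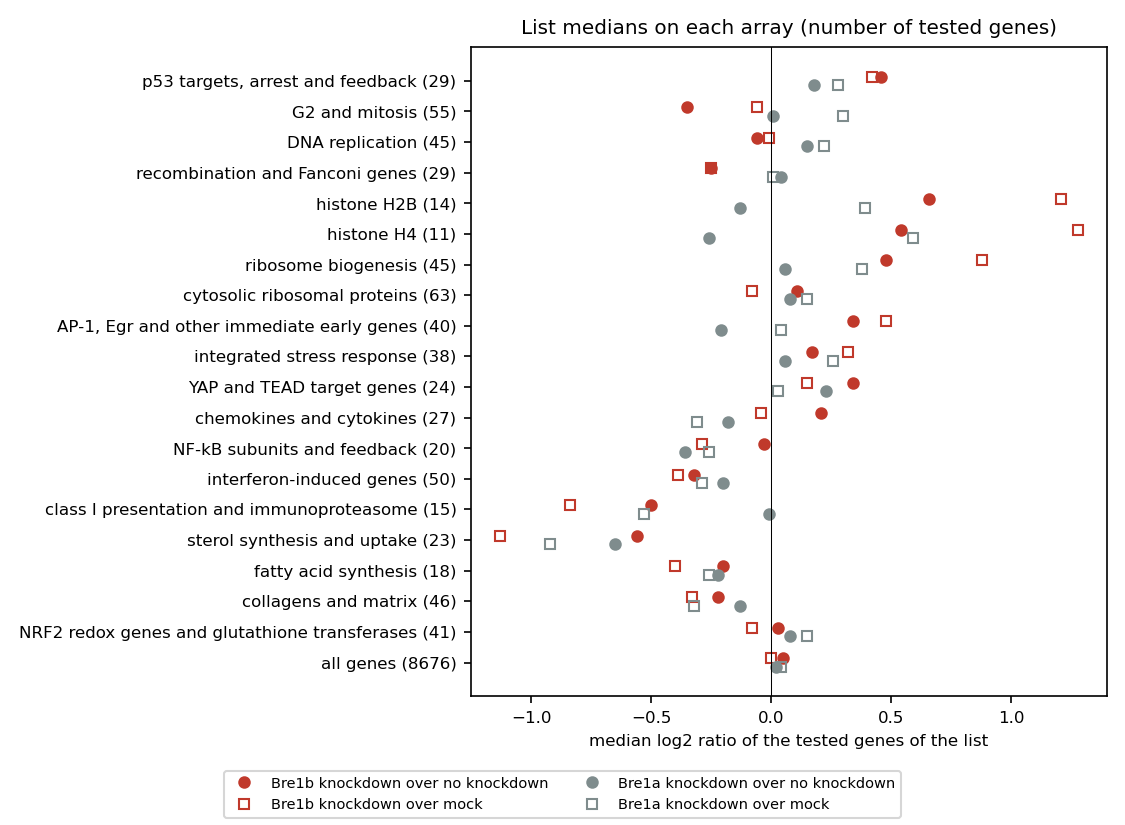
Median log2 ratio of the tested genes of 19 lists and of all genes on each of the 4 arrays, with the Bre1b arrays in red above the Bre1a arrays in grey, filled for no knockdown and open for mock as the control. Of the lists plotted, histone H2B, histone H4 and ribosome biogenesis lie highest on both Bre1b arrays, and sterol synthesis and class I presentation lie lowest.

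**Figure D4:**
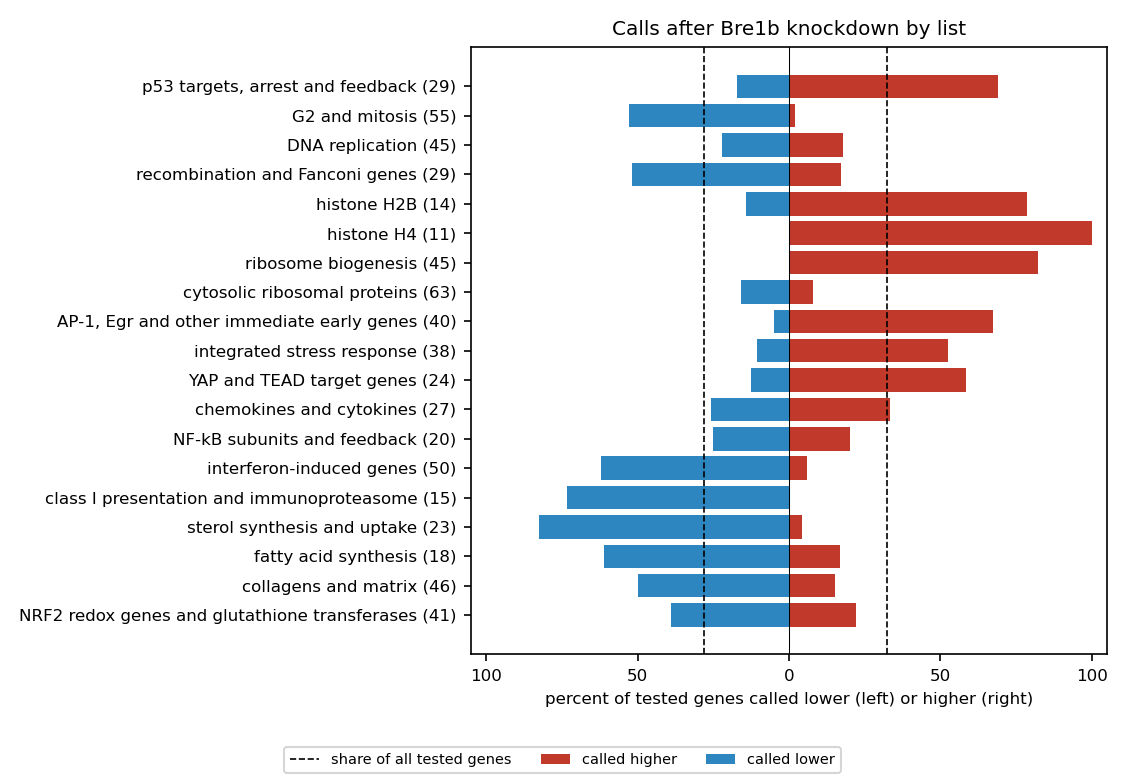
Share of the tested genes of each list called higher (right, red) or lower (left, blue) after Bre1b knockdown by limma with the control term, with the share over all tested genes as dashed lines (32.3% and 28.2%). The bars exceed the dashed lines most for histone H4, ribosome biogenesis and sterol synthesis.

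Collagens and other matrix genes had 23 lower and 7 higher of 46, with medians of -0.22 and -0.33. Fbln2, a fibulin, was at -1.64 and -2.54. Postn, periostin, fell to -1.65 and -1.35 and Ccn3 to -1.20 and -0.94, and both calls held without the control term. Postn was far lower on the Bre1a arrays, at -4.33 and -4.32, while Ccn3 was above 0 there, at 0.25 and 0.44. The main fibrillar collagens Col1a1, at 0.24 and -0.05, and Col1a2, at -0.27 and -0.08, did not pass. Thbs1, described above, was the matrix gene called higher in both fits.

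Matrix proteases and their inhibitors had 9 higher and 12 lower of 29. Plaur, the urokinase receptor, was at 0.96 and 0.83 and Mmp10 at 0.39 and 0.72, while Mmp9, a gelatinase, was at -1.29 and -1.87 and Adamts12 at -1.11 and -1.76. Integrins and adhesion genes had 8 higher and 10 lower of 26, with Cd44, the hyaluronan receptor, at 0.76 and 1.61 and Itgb5 at -0.52 and -0.97. Contractile and cytoskeletal genes had 6 higher and 7 lower of 24. Acta1 was at 1.85 and 0.80, and Acta2, the smooth muscle actin, had opposite signs, at 1.56 and -1.23.

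Redox genes of the NRF2 programme and glutathione transferases had 16 lower and 9 higher of 41. Gstt1, a theta class transferase, was at -1.68 and -2.16, Mgst3 at -1.04 and -1.57 and Aox1, aldehyde oxidase, at -1.31 and -2.66. Hmox1, heme oxygenase 1, was at 0.84 and 1.03 on the Bre1b arrays and at 0.68 and 1.05 on the Bre1a arrays. In this list 16 genes were called lower after Bre1b than after Bre1a knockdown, where 11.7% of all tested genes were, and 2 higher. Gsta4 was at 0.08 and -0.90, with 1.57 and 0.41 on the Bre1a arrays.

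Hypoxia and glycolysis genes had 8 higher and 12 lower of 32. Adm, the vasodilator adrenomedullin, was at 2.44 and 1.16, against 0.86 and -1.02 on the Bre1a arrays. Higd1a was at -0.60 and -1.62 and Bnip3, a mitophagy receptor, at -0.78 and -0.90. Hif1a itself was at 0.31 and 0.29, and Vegfa at 0.14 and 0.28, while the Bre1a arrays had -0.40 and -0.31 for Hif1a and -0.79 and -0.72 for Vegfa. Clock and PAR bZIP genes had 6 higher and 5 lower of 18, with Nfil3 at 0.50 and 0.67 and Bhlhe40 at -1.49 and -1.99. Lysosome and autophagy genes had 7 higher and 13 lower of 38, with Naglu, a lysosomal glucosaminidase, at -0.64 and -1.65 and Sqstm1, the autophagy receptor p62, at 0.33 and 0.65.

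The 2 Bre1b arrays were then set against the 2 Bre1a arrays within each control. The limma contrast called 1147 genes higher (13.2%) and 1014 lower (11.7%) after Bre1b than after Bre1a knockdown. Without the control term it called 0 genes, and 1286 had an unadjusted p under 0.05. The image month given in the labels differs between the Bre1b and the Bre1a arrays, so month and knockdown cannot be told apart, and a fold between them is a difference of 2 log ratios, not of 2 samples on an array.

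Among called differences with 1 sign within both controls, those of Cxcl2 and Cyp1b1 were the widest upward. Cyp1b1, a cytochrome P450 of the aryl hydrocarbon receptor programme, was at 2.27 and 4.11 on the Bre1b arrays and at -1.90 and -0.85 on the Bre1a arrays, a difference of 4.56 ± 0.25 (SE, limma adjusted p = 0.0372). Zhx2, a zinc finger and homeobox repressor, was at 1.56 and 1.88, against -1.86 and -1.27. For Stx3, a syntaxin of vesicle fusion, the Bre1b arrays were near 0, at -0.24 and 0.46, and the Bre1a arrays low, at -3.48 and -2.33. Ror1, a Wnt5a receptor kinase, likewise was at 0.90 and 0.48, against -1.86 and -3.84. The difference for Stx3, Ror1 and Postn thus lies mainly in the Bre1a values.

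Downward, Kctd12b differed by -5.22 ± 0.62 (SE, limma adjusted p = 0.0418), while the wider difference of Lrrtm2, -6.77 ± 1.51, was not called (SE, limma adjusted p = 0.0737). Gp9, a platelet glycoprotein, was at -2.78 and -2.52 on the Bre1b arrays and at 1.30 and 0.37 on the Bre1a arrays. Afap1l2, an actin filament-associated adaptor, was at -0.61 and -2.72, against 3.40 and 0.42. Ypel1, of the yippee family, was at -1.46 and -1.30, against 2.93 and 1.50, and its own value after Bre1b knockdown did not pass (limma adjusted p = 0.0619). Sema6c, a semaphorin, was at -1.57 and -2.54, against 1.56 and -0.27.

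**Figure D5:**
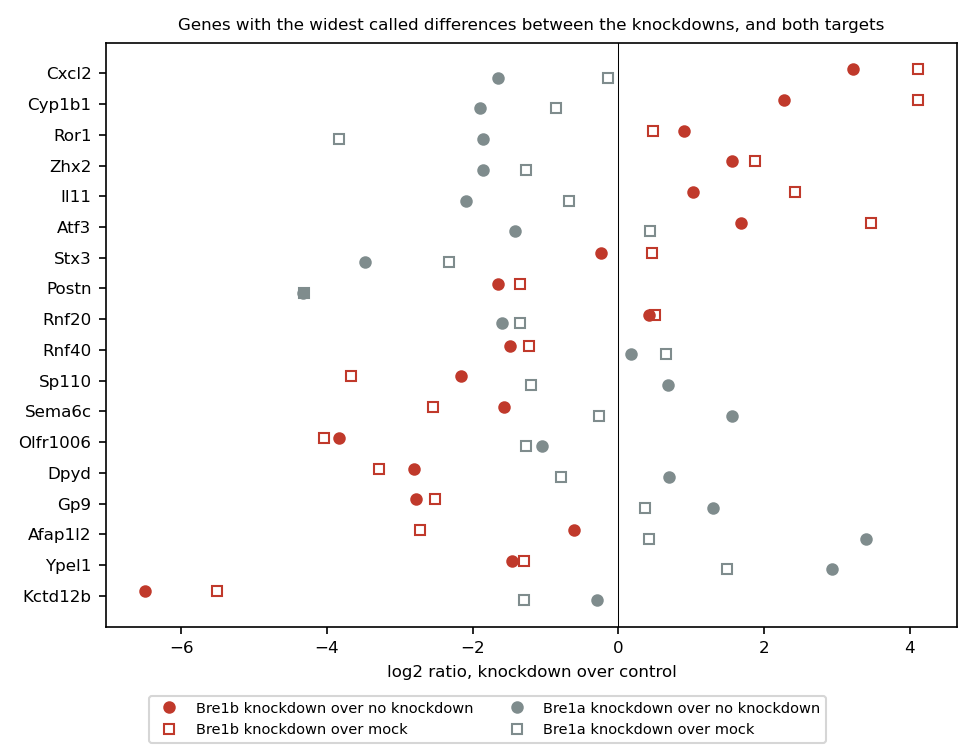
Log2 ratios of Rnf40, Rnf20 and the 16 genes with the widest called differences between the knockdowns, ordered by that difference, with the Bre1b arrays in red and the Bre1a arrays in grey. For Cxcl2, Cyp1b1 and Zhx2 both Bre1b values lie above 0 and both Bre1a values below it, whereas Postn lies below 0 on all 4 arrays.

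The 2 Bre1b arrays contradicted each other by at least 2-fold in opposite directions for 9 genes. Morn2 was at 3.15 over no knockdown and -3.80 over mock and was not tested. Ces1g, a carboxylesterase, was at 1.75 and -2.87, with 1.71 and -2.95 on the Bre1a arrays, so its split followed the control on all 4 arrays. Gsap, a gamma-secretase activating protein, was at 1.06 and -2.59, with 1.51 and -1.70 on the Bre1a arrays. Clca3a1 was at 1.48 and -1.75. The limma fit with the control term called Ces1g lower (adjusted p = 0.00998), although its mean of -0.56 ± 3.27 (n = 2) has a spread far wider than itself. Zswim4 was at -1.71 and 1.50 over its probes, of which 1 had values on the Bre1b arrays alone.

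Markers of cell types are given as a description, since a ratio of knockdown over control in the same cells cannot check cell identity. Of 14 fibroblast markers 12 had values and were tested, of which 1 was called higher and 3 lower. Pdgfra and Pdgfrb, growth factor receptors of mesenchymal cells, were called lower at -1.11 and -1.50 and at -0.41 and -0.77, as was Dcn, the matrix proteoglycan decorin, at -0.68 and -1.46. Prrx1, a homeobox factor of mesenchyme, was called higher at 0.14 and 0.80. Vim, the filament protein vimentin, at 0.09 and -0.05, did not pass, and 2 of the 12, Sparc among them, had the repeated value on both arrays and may hold no measured difference. Values were held by 0 of 14 leukocyte, 4 of 10 epithelial, 2 of 10 endothelial and 2 of 10 muscle and neural markers. Of these Krt8 was at 0.20 and -1.62, Epcam at -0.76 and -0.01, Egfl7 at -0.80 and -0.17 and Des at -1.23 and -2.54. Ratios do not give the level of a gene, and the part of other cell types in the Lce or chemokine values was not tested.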

How the data were processed

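The authors deposited a log2 ratio (Cy5 over Cy3) for each of 38784 spots per array; that Cy5 carried the knockdown RNA is per the labels, and the base of the logarithm was read from the values. How images were read, how background and dyes were corrected and which spots were removed is not given in the sources used, so brightness-dependent dye effects may be left in. The Bre1b arrays held 20629 and 19874 values over no knockdown and over mock, with medians of 0.013 and -0.033, and precision is limited by the array number. Symbols came from the platform annotation (22204 with 1 symbol, 16580 unnamed) and the 13428 named probes on both arrays were averaged into 8923 genes. Probes of a gene ranged over 0.203 at the median, and 53 genes had probes at least 0.5 from 0 in opposite directions. Tests were two-sided, from lmFit and eBayes of limma 3.58.1 (R 4.3.3), on probes with 4 values; 8 named genes have a further probe on the Bre1b arrays alone. The script was tested on simulated data. The replicate number of the titles marks the control, so the control term is the pairing of arrays. P-values cover only the variation among these 4 arrays, possibly technical. Named genes are both targets, the 20 highest and 20 lowest of 1 sign by the smaller absolute value, up to 4 called members for each of 41 lists, the 8 highest and 8 lowest between knockdowns among called differences of 1 sign within both controls, and the 5 widest opposites; list members named beyond these, the protocadherins and genes picked from the 162 were chosen after their values were seen. Members and lists were chosen with earlier results of these data known. Alternatives were the control term, the Bre1b arrays alone, centring, scaling, 1 probe per gene, spots left out and each array left out.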

Additional observations from a re-analysis of the deposited data

Results flagged for a closer look

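The limma contrast of the 2 Bre1b with the 2 Bre1a arrays was called for both targets. The other 16 genes are the widest among those called with 1 sign within both controls, so that passing the threshold was part of their choice, and each value is given as Bre1b minus Bre1a on the log2 scale. Rnf40 differed by -1.77 and Rnf20 by 1.94. On the higher side, Cxcl2 differed by 4.57, Cyp1b1 by 4.56, Ror1 by 3.54, Zhx2 by 3.29, Il11 by 3.12, Atf3 by 3.07, Stx3 by 3.01 and Postn by 2.83. On the lower side, Kctd12b differed by -5.22, Ypel1 by -3.60, Afap1l2 by -3.57, Gp9 by -3.49, Dpyd by -3.00, Olfr1006 by -2.78, Sema6c by -2.71 and Sp110 by -2.66. None of these 18 differences was called without the control term.

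The medians of 4 gene lists lay on opposite sides of 0 on both arrays of each knockdown, and this contrast between the knockdowns was not tested for the lists. All tested genes had medians of 0.049 and -0.003 on the Bre1b arrays and 0.017 and 0.041 on the Bre1a arrays. Some list medians lay about as near 0, such as 0.04 and 0.01 for recombination and Fanconi genes on the Bre1a arrays. The median over genes of the Bre1b minus Bre1a difference was -0.19 for DNA replication genes, -0.32 for G2 and mitosis genes, -0.32 for recombination and Fanconi genes and 0.10 for TGF-beta and BMP responsive genes.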

How the results depend on the processing

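The number in the titles marks the shared control, so the control term is the replicate block. Without the replicate block, limma called 37 genes higher and 125 lower after Bre1b knockdown, and 0 higher and 0 lower between the knockdowns (1286 at an unadjusted p under 0.05); the adjusted p became 0.052 for Rnf40 (-1.36) and 0.0728 for Rnf20 (0.47). With the Bre1b arrays alone the counts were 382 higher and 760 lower, and Rnf20 (0.47) had an adjusted p of 0.0924. Scaling the arrays to 1 spread gave 1038 higher and 1200 lower, 0 and 0 between the knockdowns, and 0.40 for Rnf20 (adjusted p = 0.169). A single probe per gene gave 748 genes higher after Bre1b than after Bre1a knockdown. Leaving out 1 array leaves no control term and lets a lone array vary like the other knockdown: the counts ranged from 0 to 382 higher and 0 to 760 lower, with 0 whenever a Bre1b array was left out, and between the knockdowns from 0 to 38 higher and 0 to 32 lower, above 0 without Bre1a replicate 2 alone. Rnf40 ranged from -1.49 to -1.23 and Rnf20 from 0.42 to 0.51. At least 2-fold were 149 to 382 genes higher and 436 to 911 lower on 1 array. Ern1 (0.53) turned to -0.19 with a single probe and with whole-number-ratio spots left out, an alternative chosen after seeing the data. Ces1g ranged from -2.87 to 1.75 and Gsap from -2.59 to 1.06, positive without the mock array. Of 171 named genes 139 lost the call without the replicate block, 47 with the Bre1b arrays alone, 32 with scaling, 8 with a single probe and 4 with a mean trend. The causes were not tested. Spot intensities were not analysed, so what signal over background limits was not tested.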

Other observations

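Probes without a gene name were not used in the comparisons. Of 6014 such probes with values on both Bre1b arrays, 280 were at least 2-fold higher and 848 at least 2-fold lower on both. Of the 13428 named probes 123 were at least 2-fold higher and 488 at least 2-fold lower.

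Homeobox genes of the Hox clusters, which set body position, were grouped after their values were seen. Of 20 tested Hox genes 4 were called higher and 7 lower after Bre1b knockdown, and 1 of them, Hoxc13, was called higher also without the control term.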
